A study of Mus musculus with 6 samples.

Results

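Fibrillar collagens are the collagens whose long uninterrupted triple helices pack side by side into banded fibrils. The mouse genes followed here are Col1a1, Col1a2, Col3a1, Col5a1, Col5a2, Col5a3, Col11a1, Col11a2, Col24a1 and Col27a1, taken as every non-control probe whose accession maps to 1 of these 10 symbols. They were read by 15 of the 56605 non-control probes of the array, and all 10 were among the 23060 genes tested. Type I collagen, assembled from the products of Col1a1 and Col1a2, is the main protein of skin, tendon and bone, and tail tendon is built largely of it. Type III collagen joins it in soft fibrils, type V starts fibrils and limits their width, type XI does the same chiefly in cartilage, and the chains of Col24a1 and Col27a1 belong to minor fibrillar types known from developing bone and cartilage. Lysyl hydroxylase 2 (LH2, gene Plod2) hydroxylates lysines in the short non-helical ends of fibrillar collagens and thereby sets which crosslinks join the molecules of a fibril.

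Total RNA came from cultured tail tissue fibroblasts of C57BL/6 mice, grown out of minced tails on collagen I, and was read on 6 Agilent 1-colour arrays, 2 for each of 3 groups. Every group, the control included, carried LH2F/F alleles and the CAG-Cre transgene, whose ubiquitous promoter leaves Cre unrestricted to a cell type. The control cells stayed in tamoxifen-free medium. Cells of LH2 cKO_no.1 (no.1) had 24 h of tamoxifen and then tamoxifen (+) medium, and cells of LH2 cKO_no.2 (no.2) had the same 24 h and then tamoxifen (-) medium. Tamoxifen exposure and LH2 loss therefore cannot be told apart against the control, and no.1 against no.2, the comparison the series' design text names, asks about medium with and without tamoxifen after the deletion. No label ties the paired arrays to separate cultures, and p-values therefore measure the spread between these arrays alone. The deposited files of replicates 1 and 2 of both cKO groups carry times of 24 h and 48 h that the labels do not explain.

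Several facts of the whole series bear on every value below. A level here is the processed signal in log2, less the 75th percentile of all non-control probes on the same array, and so is relative to those probes. That percentile stood at 33.7 to 34.2 signal units on the control arrays, 85.1 to 95.9 in no.1 and 55.1 to 56.9 in no.2, while the mean of 7 spike-in probes, RNA added in a fixed amount, was 412 to 417, 276 to 299.6 and 231 to 336. Scaling to the spike-ins in place of the percentile raised the median gene from -0.12 to 1.82 in no.1 and from -0.10 to 1.19 in no.2 against control. Each direction below is therefore given with its spike-in value where the sign turns. The control arrays were far more alike (robust SD of their difference 0.17 on the log2 scale) than those of no.1 (0.42) or no.2 (0.49), and no.1 replicate 2 was nearly as close to both no.2 arrays (0.44) as to its own partner. Where averaging the control arrays into 1 sample ended the call of a named gene, its adjusted p is therefore given. Slide position followed the groups, with row 1 holding only the control arrays, and the effect of position cannot be told apart from that of group. The Plod2 signal was 42.1 and 34.9 for the controls, 31.8 and 17.1 for no.1, and 13.3 and 8.59 for no.2. Relative to the percentile Plod2 fell by 2.13 (no.1, adjusted p = 0.00613) and by 2.57 (no.2, adjusted p = 0.00768). With spike-in scaling the values were -0.19 (adjusted p = 0.597) and -1.27 (adjusted p = 0.0133). The position of the Plod2 probe relative to the deleted part was not analysed here.

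Upstream sequence from RefSeq (GRCm38.p6) was held for 8 of the 10 genes, Col1a1 and Col5a2 being the others. The 250 bases before the annotated start are printed for 4 members. Col5a3 and Col11a1 had the largest fall and the largest rise in no.1 relative to the percentile. Col1a2 and Col3a1 make the 2 collagens most typical of fibroblasts. Capitals mark 3 elements searched on both strands, which do not overlap in these windows. The CCAAT box is also marked where it reads ATTGG. The core of the GC box, GGGCGG, is also marked where it reads CCGCCC. The TATA box was searched as TATAAA and as TTTATA.
Col1a2, chr6:4505368-4505617, plus strand: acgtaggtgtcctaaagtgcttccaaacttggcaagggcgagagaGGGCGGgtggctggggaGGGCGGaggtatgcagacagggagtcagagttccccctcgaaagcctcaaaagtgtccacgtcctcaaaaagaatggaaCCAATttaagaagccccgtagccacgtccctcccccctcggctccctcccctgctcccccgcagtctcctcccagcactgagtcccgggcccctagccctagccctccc
Col3a1, chr1:45311288-45311537, plus strand: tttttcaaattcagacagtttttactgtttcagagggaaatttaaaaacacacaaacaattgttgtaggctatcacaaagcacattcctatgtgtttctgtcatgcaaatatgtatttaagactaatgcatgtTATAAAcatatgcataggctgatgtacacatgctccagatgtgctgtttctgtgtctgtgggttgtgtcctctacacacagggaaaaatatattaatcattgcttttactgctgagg
Col5a3, chr9:20815068-20815317, minus strand: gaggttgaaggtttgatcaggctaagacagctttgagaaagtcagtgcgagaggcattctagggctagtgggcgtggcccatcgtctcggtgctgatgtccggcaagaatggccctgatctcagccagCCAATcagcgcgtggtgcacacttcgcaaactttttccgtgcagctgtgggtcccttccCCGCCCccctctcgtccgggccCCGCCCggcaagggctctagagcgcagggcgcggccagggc
Col11a1, chr3:114030290-114030539, plus strand: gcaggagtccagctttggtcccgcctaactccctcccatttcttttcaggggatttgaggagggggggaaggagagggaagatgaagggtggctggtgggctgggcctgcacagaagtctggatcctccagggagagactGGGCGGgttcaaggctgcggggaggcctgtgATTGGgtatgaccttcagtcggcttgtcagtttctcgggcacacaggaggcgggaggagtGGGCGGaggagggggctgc
The Col1a2, Col5a3 and Col11a1 windows each hold 1 CCAAT box and 2 GC boxes, at 62.0%, 62.8% and 62.4% G+C. Col3a1 stands apart with 35.2% G+C, 1 match to the TATA box, 117 to 112 bases before the annotated start, and neither other element. Over the 8 members, 3 hold the CCAAT box, 6 the GC box and 2 the TATA box. Of all 32851 windows of this length in the table, 33.8% hold the CCAAT box, 32.7% the GC box and 12.4% the TATA box. Col5a3 and Col11a1 hold the same number of each element, at other distances from the start and on opposite strands. How the matches relate to the levels was not tested. A match is a description of these letters only. Col3a1 and Col5a2 are neighbours on chromosome 1 in the RefSeq order of protein-coding genes, and no other pair of members is adjacent in that order.

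Relative to the percentile, type I collagen kept within narrow limits on all 6 arrays. Col1a1, which codes for the more numerous chain of the type I molecule, was read by 2 probes of 10 spots each. The better probe gave levels of 7.48 and 7.52 for the controls, 7.45 and 7.28 for no.1, and 7.77 and 7.72 for no.2. On this scale both no.1 arrays lay below both control arrays, and both no.2 arrays lay above them. The difference was -0.13 ± 0.19 (SE) for no.1 (adjusted p = 0.574) and 0.25 ± 0.19 for no.2 (adjusted p = 0.336), so neither passed limma's test. Over 17 alternative settings the no.1 difference turned positive in 5 and passed the test in 2. The no.2 difference did pass with quantile normalization (0.71, adjusted p = 0.0351), with the deposited value table (0.71, adjusted p = 0.0357) and with another background correction (0.64, adjusted p = 0.0151). That correction, normexp, adds 50 signal units to every spot before the log2, which shrinks differences between faint signals. The second probe gave -0.14 and 0.31. Over the spots of 1 array the Col1a1 signal had a coefficient of variation of 1.1% to 4.17%.

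The other type I chain, Col1a2, was at 8.85 and 8.999 for the controls, 8.36 and 8.59 for no.1, and 8.96 and 9.09 for no.2. Its no.1 arrays were the lowest pair, and its no.2 arrays overlapped the controls. The differences were -0.45 ± 0.20 (adjusted p = 0.105) and 0.10 ± 0.20 (adjusted p = 0.720), the latter called with another background correction (0.51, adjusted p = 0.023). The 95% interval for Col1a2 in no.1, -0.94 to 0.03, reached from a clear drop to no change. As raw signal both chains were brighter in the cKO groups. Col1a1 read 6082 and 6166 for the controls, 16754 and 13187 for no.1, and 11990 and 12022 for no.2. On the spike-in scale Col1a1 was higher by 1.81 ± 0.29 for no.1 (adjusted p = 0.00111) and 1.54 ± 0.29 for no.2 (adjusted p = 0.00473), and Col1a2 by 1.49 (adjusted p = 0.00382) and 1.40 (adjusted p = 0.0086). Against the median gene of that scale, 1.82 and 1.19, the type I chains again lay close to the typical gene. In bulk RNA, the amount of RNA put on an array, its labelling, more RNA per cell and a change in the mix of cells cannot be told apart.

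Col3a1, which forms type III collagen from identical chains, varied far more than type I. Its level was 5.20 and 5.27 for the controls, 3.51 and 4.40 for no.1, and 4.86 and 6.49 for no.2. Both no.1 arrays lay below every other array, while the no.2 arrays lay on either side of the controls. The difference for no.1 was -1.28 ± 0.56 (adjusted p = 0.105), and for no.2 it was 0.44 ± 0.56 (adjusted p = 0.570). Neither was called, and with spike-in scaling the no.1 value turned to 0.66 (adjusted p = 0.390). The no.1 difference passed the test when either no.2 array was left out of the shared spread: adjusted p = 0.0401 without replicate 1 of no.2 and 0.0395 without its replicate 2. It also passed with the no.2 arrays removed together (adjusted p = 0.0372) and with a term for replicate number in the fit. Without replicate 2 of no.2 the no.2 value turned to -0.37.

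**Figure D1:**
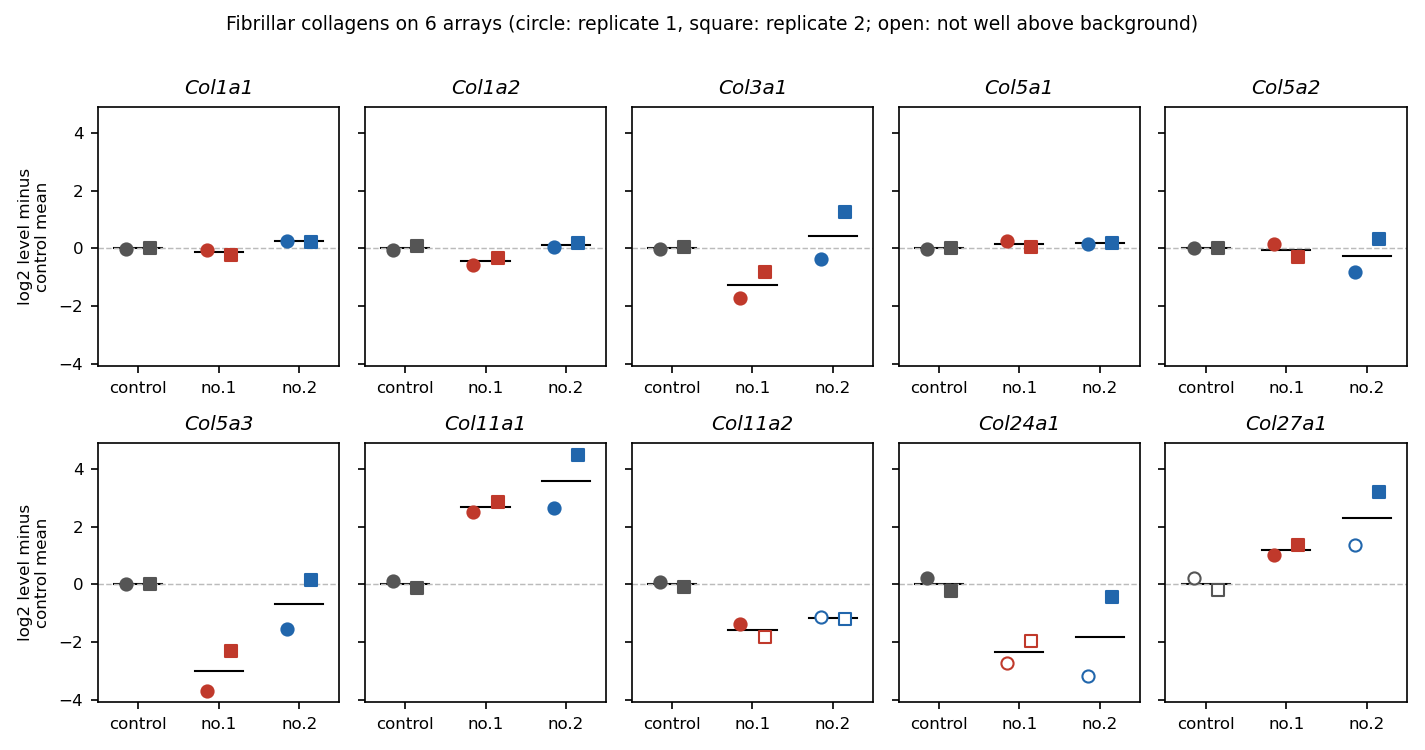
Each panel plots 1 fibrillar collagen, with the log2 level minus the control mean on the vertical axis and the 3 groups on the horizontal axis; circles are replicate 1, squares replicate 2, bars group means of 2 arrays, and open symbols arrays where the probe was not well above background. Col1a1, Col1a2 and Col5a1 stay close to 0, Col11a1 is above control on all 4 cKO arrays, and the square lies above the circle in no.2 for Col3a1, Col5a2, Col5a3, Col11a1, Col24a1 and Col27a1.

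Type V collagen has 3 chains, and they behaved differently. Col5a1, the chain that most type V molecules contain, was at 4.88 and 4.93 for the controls, 5.14 and 4.94 for no.1, and 5.05 and 5.10 for no.2. All 4 cKO arrays lay just above the controls. The differences of 0.14 ± 0.19 (adjusted p = 0.563) and 0.17 ± 0.19 (adjusted p = 0.516) did not pass the test, and their 95% intervals, -0.32 to 0.60 and -0.29 to 0.63, leave room for changes of either sign. With spike-in scaling they were 2.08 (adjusted p = 0.000784) and 1.46 (adjusted p = 0.00653), and with another background correction 0.78 (adjusted p = 0.00371) and 0.55 (adjusted p = 0.0316).

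Col5a2, its usual partner chain, had levels of 0.98 and 0.97 for the controls, 1.13 and 0.67 for no.1, and 0.15 and 1.28 for no.2. The arrays of each cKO group lay on either side of the controls. The differences were -0.07 ± 0.40 (adjusted p = 0.894) and -0.26 ± 0.40 (adjusted p = 0.641), and both were positive with spike-in scaling, at 1.87 (adjusted p = 0.0147) and 1.04 (adjusted p = 0.124). Without replicate 1 of no.2 the no.2 value turned to 0.31, and without replicate 2 of no.1 the no.1 value turned to 0.16.

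Col5a3, the chain found in the rarer mixed type V molecules, showed the largest drop among the members measured on all 6 arrays. Its brighter probe, A_51_P241995, gave processed signals of 504 and 499 for the controls, 110 and 250.4 for no.1, and 281 and 944 for no.2. On the relative scale those were 3.88 and 3.89, 0.20 and 1.56, and 2.35 and 4.05. The controls were nearly identical, both no.1 arrays lay far below them, and in no.2 one array lay below and the other just above. Col5a3 fell by 3.01 ± 0.65 in no.1 (8.05-fold lower, adjusted p = 0.0134), and with spike-in scaling the value kept its sign at -1.07 but lost the call (adjusted p = 0.217). Without replicate 1 of no.1 the difference was -2.33 and was not called (adjusted p = 0.0858).

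In no.2 the same Col5a3 probe differed by -0.68 ± 0.65 (adjusted p = 0.444), which turned to 0.17 without replicate 1 of no.2 and to 0.61 with spike-in scaling. The dimmer probe of Col5a3, A_52_P503796, read 15.7 and 12.8 for the controls, 4.17 and 4.47 for no.1, and 7.43 and 9.90 for no.2. Here the 3 groups did not overlap. It was not well above background in no.1, where it was at least 7.81-fold lower than in control relative to the percentile (adjusted p = 0.00113). In no.2 the dimmer probe fell by 1.45 ± 0.24 on that scale (adjusted p = 0.0120). The probes thus disagree on the size of the no.2 difference and on its call. The dimmer probe was not fitted with spike-in scaling, which moved the brighter one from -3.01 to -1.07 in no.1 and from -0.68 to 0.61 in no.2.

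Col11a1, a type XI chain that joins type V chains in non-cartilage tissue, was the member with the clearest rise. The brighter probe, A_51_P459477, gave processed signals of 11.03 and 9.19 for the controls, 162 and 184 for no.1, and 103 and 381 for no.2. The corresponding levels were -1.63 and -1.87, 0.76 and 1.11, and 0.90 and 2.74. All 4 cKO arrays lay more than 2 log2 units above both controls. Col11a1 rose by 2.69 ± 0.57 for no.1 (6.44-fold, adjusted p = 0.0128) and by 3.58 ± 0.57 for no.2 (11.9-fold, adjusted p = 0.0113). With spike-in scaling the rises were 4.63 and 4.87 (adjusted p = 0.000918 and 0.0025).

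Over the 17 alternatives Col11a1 kept its direction in both comparisons, with the no.2 call kept in all 17 and the no.1 call in 13. The no.1 call was lost without replicate 2 of the control (2.57, adjusted p = 0.0509), without replicate 1 of no.1 (2.86, adjusted p = 0.0686), without its replicate 2 (2.51, adjusted p = 0.0718) and with another background correction (1.06, adjusted p = 0.0738). The dimmer probe, A_52_P507877, was not well above background in control and gave 19.8, 18.6, 17.8 and 39.7 on the cKO arrays. It was at least 1.59-fold higher in no.1, without a call (adjusted p = 0.0689), and at least 3.54-fold higher in no.2 (adjusted p = 0.0258).

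Col11a1 is best known from cartilage, so other cartilage markers are given beside it. Of 8 chondrocyte markers, Acan, Cnmd, Hapln1, Matn1 and Matn3 were not well above background on any array, and of the 3 tested 1 was called higher and 2 lower in each group. The one called higher was Col10a1, a collagen of hypertrophic cartilage, with signals of 1.17 and 1.65 for the controls, 18.7 and 15.8 for no.1, and 12.5 and 6.52 for no.2 (adjusted p = 0.00652 and 0.0160, and 0.0616 in no.2 with the controls averaged). Col10a1 was well above background on the 4 cKO arrays only and entered the test through them. With another background correction its difference turned to -0.37 in no.1 (adjusted p = 0.0134) and to -0.165 in no.2 (adjusted p = 0.188). The 50 units added there exceed every Col10a1 signal, so these turned signs are no measure of Col10a1. Comp and Sox9 were the lower ones, and neither call held with the controls averaged or with spike-in scaling. Comp entered the test only through the control arrays. The summed relative signal of all 8 markers, in control mostly Comp and Sox9, was 1.99 to 2.10 in control, 0.57 to 0.65 in no.1 and 0.55 to 0.87 in no.2. Of 7 osteoblast markers, Alpl, Dmp1, Ibsp and Sp7 were never well above background, and Runx2, a transcription factor of bone and cartilage, was so on all 6 arrays. Runx2 rose in no.2 (1.02, adjusted p = 0.0216; 0.119 with the controls averaged), and in no.1 it was at 0.56 without a call (adjusted p = 0.0745). The part of these cell types in the Col11a1 values was not tested. The partner chain of Col11a1 in cartilage, Col11a2, was faint throughout, with processed signals of 7.46 and 6.60 for the controls, 7.65 and 5.01 for no.1, and 5.24 and 5.12 for no.2. It was well above background on both control arrays and on 1 of the no.1 arrays. It entered the test only through the control arrays. The raw signals of control and no.1 overlapped, while the percentile taken from them was higher on the cKO arrays. Relative to that percentile Col11a2 was called lower in no.1, with a fitted difference of -1.59 ± 0.22 that rests on 1 measured no.1 array (adjusted p = 0.00452). In no.2, where neither array was well above background, the fitted difference was -1.16 ± 0.22 (adjusted p = 0.0176). That difference rests on background values and is not a bound. The spike-in values were 0.35 (adjusted p = 0.323) and 0.13 (adjusted p = 0.708). The no.2 call ended with the controls averaged (adjusted p = 0.0963), without replicate 1 (0.101) or 2 (0.0835) of the control and without replicate 2 of no.2 (0.0645). With all probes of a gene averaged the no.2 value shrank to -0.29 (adjusted p = 0.589). Its other probe was above background on 1 array of the 6.

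Col24a1 and Col27a1 were near the limit of detection. Col24a1 was well above background on both control arrays and on replicate 2 of no.2, with signals of 8.81 and 6.33 for the controls, 3.15 and 4.75 for no.1, and 1.34 and 9.16 for no.2. The gene was at least 4.11-fold lower in no.1, without a call (adjusted p = 0.0604). The no.2 difference was -1.81 ± 0.84 (adjusted p = 0.147). With spike-in scaling both were smaller and uncalled, at -0.42 and -0.52 (adjusted p = 0.689 and 0.637). Calls for Col24a1 in no.1 appeared in 6 of the 17 alternatives, among them without no.2 replicate 1 (adjusted p = 0.0113) or replicate 2 (0.011), with only the groups compared (0.01), with all probes averaged (-2.83, 0.00849) and with another background correction (-0.77, 0.00214). In no.2 they appeared without its replicate 2 (-3.18, 0.0309), with all probes averaged (-2.10, 0.0331) and with the other background correction (-0.41, 0.0321), while without replicate 1 of no.2 the value was -0.45 (0.445). The remaining no.1 call came with a term for replicate number in the fit. The second Col24a1 probe was not well above background anywhere.

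Col27a1 read 1.24 and 0.91 in control, where it was not well above background, 6.16 and 6.82 in no.1, and 4.42 and 16.6 in no.2. In no.2 only replicate 2 was well above background. It entered the test only through no.1. Against the control floor Col27a1 was at least 1.14-fold higher in no.2, from 1 measured array of that group, and limma called it (adjusted p = 0.0351). In no.1, uncalled (adjusted p = 0.137), no fold can be given, because the signal of control at the floor would exceed it. The fitted differences of 2.29 and 1.19 rest on background values. With spike-in scaling both were larger, 3.58 and 3.13, but with the other background correction both turned, to -0.015 and -0.53. The 50 units added in that correction exceed every Col27a1 signal, so the turned signs are no measure of Col27a1. The no.2 call ended with the controls averaged (adjusted p = 0.106) and without any 1 of 5 arrays: replicate 1 (0.0842) or 2 (0.126) of the control, replicate 1 (0.0740) or 2 (0.0736) of no.1, and replicate 2 of no.2 (1.35, 0.0551). A no.1 call appeared without replicate 1 (0.0193) or 2 (0.019) of no.2, with only the groups compared (0.0176), with quantile normalization (0.0487), with median-probe scaling (0.0393) and with the spike-ins (0.00533). These values are given for completeness, since the faint signal leaves little to measure on the control arrays.

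Counted over the family, 3 of 10 members were called in no.1 against control: Col11a1 higher, Col5a3 and Col11a2 lower. Over all genes tested 47.8% were called, 21.4% higher and 26.4% lower, so calls were no more frequent among the collagens. That count, 11021 genes, dropped to 5497 without replicate 1 of the control, 5193 without its replicate 2 and 5147 without replicate 1 of no.1. Called collagens in no.1 numbered 0 to 2 higher and 1 to 4 lower when single arrays were left out, with Col27a1 higher and Col3a1 and Col24a1 lower added without either no.2 array. In no.2 against control the 3 called members were Col11a1 and Col27a1, higher, and Col11a2, lower, against 28.3% of all genes (12.1% higher and 16.2% lower), which is near the family's share. Col11a2, Col24a1 and Col27a1 are in these counts although each passed the filter through 1 group and was at background on other arrays. Among the 7 members measured on all 6 arrays the calls were Col11a1 and Col5a3 in no.1 and Col11a1 in no.2. Those 6518 genes became 1815 without replicate 1 of the control, 1401 without its replicate 2 and 2848 without replicate 2 of no.2. All 4 array pairs placed 6 members lower and 3 higher in no.1 than in control, where 44.7% and 36.7% of all genes did so. In no.2 the counts were 2 lower and 4 higher against 41.3% and 33.2%. The median member differed by -0.29 in no.1 and 0.13 in no.2, beside -0.12 and -0.10 over all genes. These comparisons share the control arrays, so the agreement of their values is not independent. With spike-in scaling 6 members were called higher in no.1 and 5 in no.2, and 0 lower in either.

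**Figure D2:**
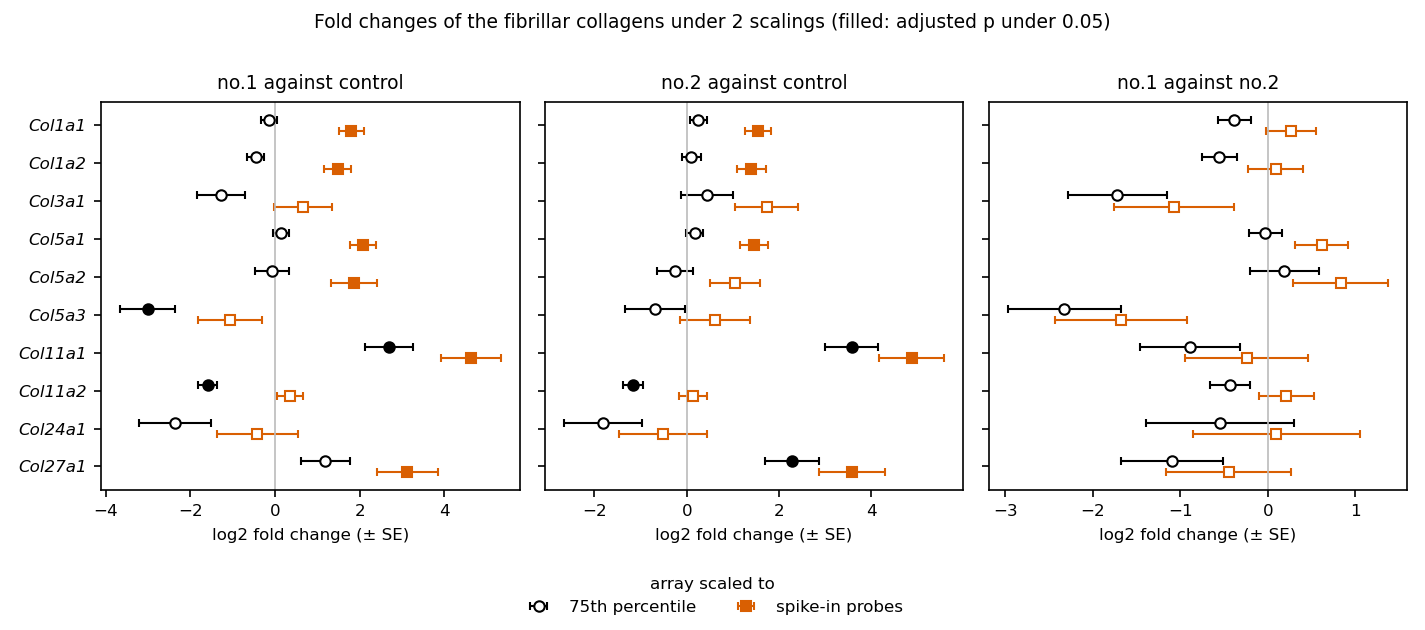
The 3 panels plot the log2 fold change of each fibrillar collagen with its SE (horizontal axis) for no.1 against control, no.2 against control and no.1 against no.2; black circles use the array's 75th percentile, orange squares the spike-in probes, and filled symbols have an adjusted p under 0.05. The orange values lie to the right of the black ones throughout, Col11a1 is filled and above 0 on both scales against control, and no symbol is filled for no.1 against no.2.

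Medium with tamoxifen against medium without it gave 0 called members, in a comparison where limma called 0% of all genes. At an unadjusted p under 0.05 there were 3825 genes (16.6%) and 3 members, Col1a2, Col3a1 and Col5a3. Leaving out replicate 2 of no.1 gave 77 called genes and leaving out replicate 2 of no.2 gave 1, with 0 members in either case. Even so, 9 of 10 collagens were on the lower side in no.1, with a median of -0.55 beside -0.01 over all genes. Both no.1 arrays lay below both no.2 arrays for 6 members (Col1a1, Col1a2, Col3a1, Col5a3, Col11a2 and Col27a1) and above them for 0, where 25.4% and 22.5% of all genes did so. For Col11a2 and Col27a1 that order was set against no.2 arrays at background, and the Col11a2 signal itself was highest on replicate 1 of no.1. With spike-in scaling the differences of Col1a1, Col1a2, Col5a1, Col11a2 and Col24a1 turned positive, as the median gene moved to 0.63.

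The widest of these differences was that of Col5a3, at -2.32 ± 0.65 with a 95% interval from -3.91 to -0.74 (adjusted p = 0.282). Its dimmer probe was at least 2.86-fold lower in no.1 than in no.2 relative to the percentile. Col3a1 differed by -1.72 ± 0.56, with an interval from -3.09 to -0.35 (adjusted p = 0.282), and both genes kept their sign with spike-in scaling, at -1.68 and -1.08. Col1a2 differed by -0.55 ± 0.20, from -1.04 to -0.07 (adjusted p = 0.283), and Col1a1 by -0.38 ± 0.19, from -0.84 to 0.07 (adjusted p = 0.341). Col11a1 differed by -0.89, from -2.28 to 0.51, and turned to 0.03 without replicate 2 of no.2. Col5a1 was closest to 0, at -0.03 with an interval from -0.49 to 0.43. Col5a2 lay at 0.19, from -0.78 to 1.15.

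A wide spread lay inside the no.2 group. Replicate 2 of no.2, whose file carries 48 h, exceeded replicate 1, whose file carries 24 h and where Col24a1 and Col27a1 were at background, by 1.63 for Col3a1, 1.14 for Col5a2, 1.70 for Col5a3, 1.84 for Col11a1, 1.86 for Col27a1 and 2.73 for Col24a1. Over the same arrays the difference was -0.04 for Col1a1, 0.14 for Col1a2 and 0.05 for Col5a1, while Col11a2 was at background on both. In no.1 the difference in the same order was 1.36 for Col5a3, 0.89 for Col3a1 and 0.35 for Col11a1, but -0.46 for Col5a2 and -0.20 for Col5a1. Between the control arrays no member measured on both differed by more than 0.46. Each of these differences rests on 1 array per time and has no test.

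Ratios between members within an array are free of the factor that scales the array, but not of background correction or quantile normalization. Normexp, with its 50 added units, gave a Col11a1 rise in no.1 of 1.06 in place of 2.69, from control signals of 11.03 and 9.19. Relative to its mean in control, the log2 ratio of Col1a1 to Col1a2 was 0.52 and 0.12 in no.1 and 0.24 and 0.06 in no.2. The control arrays themselves lay at 0.05 and -0.05, so replicate 2 of no.2 was close to control. On the other cKO arrays Col1a1 signal gained slightly on its partner chain. The Col5a1 to Col1a1 ratio stayed within 0.29 of control on every array. By contrast the Col11a1 to Col1a1 ratio was higher by 2.56 and 3.08 in no.1 and by 2.38 and 4.27 in no.2. The Col5a3 to Col1a1 ratio was -3.64 and -2.11 in no.1, and -1.81 and -0.06 in no.2. The ratio of Col1a1 to Col3a1 was 1.68 and 0.61 in no.1 and 0.64 and -1.03 in no.2. Col11a1 thus gained on type I on every cKO array, whereas Col5a3 and Col3a1 differed between the arrays of no.2.

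**Figure D3:**
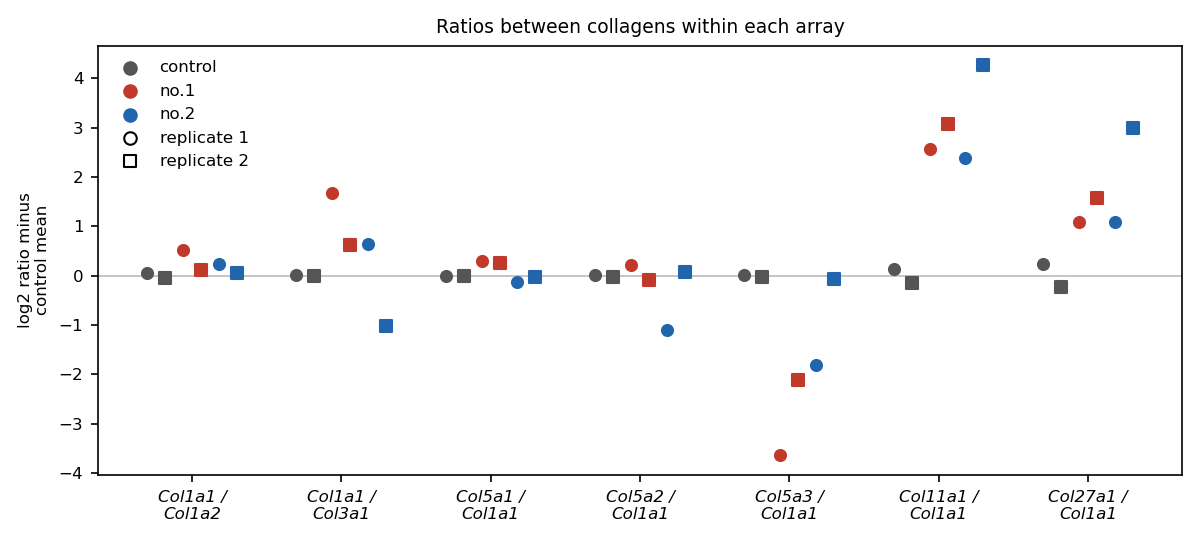
For 7 pairs of fibrillar collagens (horizontal axis), points give the log2 signal ratio on each array minus the mean of the 2 control arrays (vertical axis), coloured by group, with circles for replicate 1 and squares for replicate 2. The Col11a1 to Col1a1 ratio is above 2 on all 4 cKO arrays, the Col5a1 to Col1a1 ratio lies near 0, and the Col27a1 signal is not well above background in control or on replicate 1 of no.2.

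By the shape of their levels across the 6 arrays, each gene centred on its own mean, the most alike members were Col1a1 and Col5a1, with a root mean square distance of 0.15, followed by Col1a1 and Col1a2 (0.18). Col11a1 and Col27a1 lay 0.66 apart, and the farthest pair was Col11a1 and Col24a1, at 2.48. Among the other 14080 tested genes with a symbol, those closest in shape to Col1a1 were Fbrs (0.05), Crtc3 (0.05) and Brsk1 (0.05). For Col1a2 they were Ephb2 (0.05), Slc26a6 (0.05) and Particl (0.06). Col3a1 had Paqr6 (0.16) among its 3 closest. These are descriptions over 6 arrays of 1 slide.

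Genes that act on fibrillar collagen were read from lists chosen with earlier results known, and their calls are given as counts relative to the percentile, to be read against 21.4% of all genes higher and 26.4% lower in no.1 and 12.1% and 16.2% in no.2. The same counts follow with spike-in scaling, where nearly all calls were higher, and with the controls averaged. Of 24 tested genes of procollagen folding and modification, 2 rose and 12 fell in no.1, and 0 rose and 3 fell in no.2, whereas with spike-in scaling 18 rose and 0 fell in no.1 and 15 rose and 1 fell in no.2. With the controls averaged 5 fell in no.1 and 1 in no.2. P3h4, a helper of lysyl hydroxylation, differed by -1.65 and -1.24, and Plod3, another lysyl hydroxylase, by -1.59 and -1.23, but both were positive, without a call, with spike-in scaling (0.29 and 0.05, 0.35 and 0.06), and with the controls averaged both lost the no.2 call (adjusted p = 0.0707 and 0.0723). Of 14 export genes 2 rose and 0 fell in each group, 14 rose in each with spike-in scaling, and 0 were called with the controls averaged. Sec24d, a coat protein of the vesicles that carry procollagen, was at 1.05 and 1.12 (adjusted p = 0.088 and 0.121 with the controls averaged), and Sec31a, of the same coat, at 0.76 in no.2 (0.201 with the controls averaged) and 0.40 in no.1 without a call. No gene of these lists was called between no.1 and no.2.

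Of 6 propeptide-removal genes 4 fell in no.1, and 2 fell and 1 rose in no.2. With spike-in scaling 5 rose and 1 fell, and 3 rose and 1 fell, and with the controls averaged 1 fell in each group. Adamts2, the main enzyme that cuts the amino-terminal propeptide from type I procollagen, had signals of 672 and 724 for the controls, 22.3 and 16.6 for no.1, and 13.4 and 32.7 for no.2. The groups were far apart. Adamts2 fell in both, with -6.59 for no.1 (adjusted p = 0.000674), -5.78 for no.2 (adjusted p = 0.00145), and -4.65 and -4.48 with spike-in scaling. Tll1, a carboxyl-propeptide protease, was at -1.16 and -1.25 (adjusted p = 0.0584 and 0.0845 with the controls averaged), and at 0.78 and 0.04 with spike-in scaling. Of 5 crosslinking oxidases, which act on the lysines that LH2 modifies, 2 fell in each group (with spike-in scaling 4 rose in no.1 and 2 in no.2, and with the controls averaged 1 fell in each): Lox with -2.50 and -2.35 (adjusted p = 0.00318 and 0.00643) and Loxl1 with -1.09 and -0.70, which turned to 0.85 and 0.59 with spike-in scaling. The Loxl1 calls ended with the controls averaged (adjusted p = 0.0587 and 0.213). Spike-in scaling left Lox at -0.56 and -1.05, without a call (adjusted p = 0.269 and 0.0713).

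Of 14 fibril-binding matrix proteins 2 rose and 10 fell in no.1, and 2 rose and 8 fell in no.2. With spike-in scaling 4 rose and 4 fell, and 3 rose and 3 fell, and with the controls averaged 1 rose and 8 fell in no.1 and 3 fell in no.2. Tnxb, a tenascin that binds collagen fibrils, fell in both (-3.89 and -3.29, with spike-in scaling -1.95 and -1.995), as did Ecm1 (-2.29 and -1.99, with spike-in scaling -0.35 without a call and -0.69). Of 5 fibril-associated collagens 2 fell in no.1, Col16a1 (-0.92) and Col22a1 (-1.33), and 0 were called in no.2, but with spike-in scaling both were positive and 4 of the 5 rose in each group. Both calls ended with the controls averaged (adjusted p = 0.0825 and 0.056). Of 7 receptor and uptake genes 3 and 2 fell, among them Ddr1 (-1.52 and -1.13) and, in no.1, Mrc2 (-1.28), and these turned positive with spike-in scaling, where 4 rose and 0 fell in each group. With the controls averaged 2 fell in no.1 and 0 in no.2, where Ddr1 lost its call (adjusted p = 0.085). Of 10 listed breakdown genes, proteases and Timp inhibitors together, 7 and 5 fell, led by the gelatinase gene Mmp9, above background in control only. With spike-in scaling 4 of them rose and 1 fell in no.1, and 2 rose and 3 fell in no.2, and with the controls averaged 5 and 4 fell. Timp3, an inhibitor of such proteases, fell in both (-2.61 and -2.26, with spike-in scaling -0.67 without a call and -0.97). Relative to the percentile every Timp gene of the list was among the falls in both groups, so these were not of proteases alone. Of 34 regulators of type I collagen transcription 15 rose and 4 fell in no.1, and 9 rose and 1 fell in no.2, with Tgfb2 higher by 2.83 and 2.30 and Nfib by 2.77 and 2.27, and higher still with spike-in scaling. Spike-in scaling gave 31 and 28 of the 34 higher and 0 lower, and averaging the controls left 5 higher and 1 lower in no.1 and 2 higher in no.2. In the reported fit Col1a1 and Col1a2 themselves were not called in either comparison. With another background correction Col1a1 was called higher in both groups and Col1a2 in no.2, and with spike-in scaling both were higher in both groups.

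**Figure D4:**
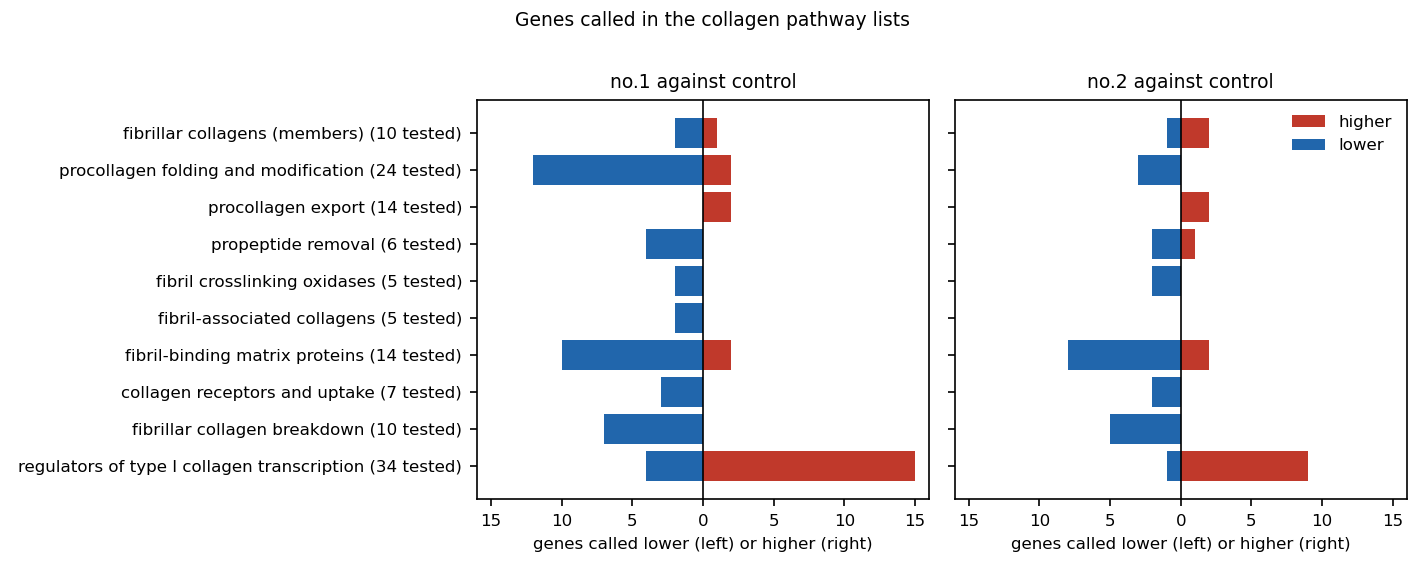
Bars count the genes called lower (left, blue) or higher (right, red) in each list, relative to the array's 75th percentile, for no.1 against control and no.2 against control; the number tested stands beside each list. Lower calls outnumber higher ones for folding, fibril-binding and breakdown genes, and higher calls outnumber lower ones for the transcription regulators. The breakdown list holds Timp inhibitors beside proteases.

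The cell type label was set against marker lists. Of 18 fibroblast markers 15 or 16 were well above background on each array, Lum being at background on all 6. Their summed relative signal, most of it S100a4, was 4786 to 5036 in control, 1703 to 1707 in no.1 and 1579 to 2146 in no.2. Of the 16 tested, 3 were called higher (Col6a3, Prrx1 and Twist1) and 10 lower in no.1, and 2 higher (Col6a3 and Twist1) and 8 lower in no.2. With spike-in scaling those counts were 7 higher and 2 lower, and 7 higher and 1 lower, and with the controls averaged 0 higher and 7 lower, and 0 higher and 1 lower.

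The tenocyte sum was 94.7 to 95.7 in control, 29.3 to 32.8 in no.1 and 24.7 to 33.6 in no.2, and most of the control sum was Thbs4. In each group 3 of the 6 tenocyte markers were called lower (Thbs4, Tnmd and Fmod) and 2 higher, Mkx and Egr1 in no.1 and Mkx and Scx in no.2, though 0 were higher with the controls averaged. Thbs4 and Tnmd entered the test only through the control arrays, where they were high, and Mkx only through the cKO arrays, where it was high. Myofibroblast markers were detected 6 or 7 of 8, with sums of 754 to 1411. Both the fibroblast and the tenocyte sum were lower on all 4 cKO arrays than in control. Replicate 2 of no.2 had the highest Col5a3 level and the lowest sums. Among the cKO arrays, Thbs4 (42.4), Tnmd (5.49), Fmod (26.5), Scx (861) and Mkx (65.0) had their highest signal there, and Egr1 (402) its lowest. The part of these markers in the Col5a3 difference was not tested.

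Markers of other types were partly present. Of 8 macrophage and leukocyte markers 5 were detected on every array (Itgam, Csf1r, Cd14, Cd68 and Cd3e), with sums of 47.9 to 50.9 in control, 29.5 to 33.4 in no.1 and 30.7 to 37.9 in no.2, while Ptprc, Adgre1 and Lyz2 were never well above background. Of 8 keratinocyte markers 2 or 3 were detected (Trp63, Krt10 and, on the control arrays, Dsp), with sums of 9.77 to 12.9, and Krt5 and Krt14 on no array. Of 8 endothelial markers 0 to 2 were detected, with sums of 0.26 to 0.53, and Cdh5 on no array. Adipocyte markers were detected 3 of 6 (3.15 to 5.44) and skeletal muscle markers 1 or 2 of 7 (12.6 to 21.4). Their part in the collagen values was not tested.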

How the data were processed

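The scanner files hold intensity values that the authors obtained with Agilent Feature Extraction, version 12.1.1.1 per the file headers and 9.5.1.1 per the submitters' processing notes, background-subtracted and not scaled between arrays per the file headers. A value table of intensities was also deposited by the authors. How it was made is not stated, but 99.95% or more of its entries on each array matched the quantile-normalized signal to 1%, and its median was 5.16 for each array. No column of it was without a sample.

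Log2(processed signal) was taken relative to the 75th percentile of the 56605 non-control probes of the array, with spots of a probe averaged and outlier spots left out. A gene took its probe of highest mean and entered the test if that probe passed the scanner's background flag on the 2 arrays of any group. No spot was saturated. A RefSeq gene table (GRCm38.p6) gave symbols to 32994 probes (58.3%), names only, since the file headers name mm9. A bound for a probe at background replaces its dim arrays by the array's faintest flagged-present signal, where the probe's own is lower.

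limma 3.58.1 in R 4.3.3 (lmFit, eBayes) fitted the 3 groups over all 6 arrays with 3 residual degrees of freedom. Every adjusted p is limma's with Benjamini-Hochberg adjustment over 23060 genes (single probes: over 29681), called under 0.05, and every SE is that of the moderated fit. The script was tested on simulated data. Named genes were the members, the 2 called genes of lowest p in each pathway list, and the 3 genes nearest in shape to Col1a1, Col1a2 and Col3a1, of which 2 are not reported here. Genes outside this rule (Plod2, background markers) were named for checks. The members and all lists were chosen with earlier results of these data known. The 17 alternatives covered scaling, background correction, filter, probe rule, arrays in the fit and a replicate block. Array number, 2 per group, limits precision.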

Additional observations from a re-analysis of the deposited data

Results flagged for a closer look

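Relative to the percentile Col1a1 differed in sign between the cKO groups. Both no.1 arrays lay below both control arrays, and both no.2 arrays lay above them. The no.1 sign turned positive in 5 of the 17 alternatives, while no.2 stayed positive. Quantile normalization gave 0.36 in no.1 and 0.71 in no.2, and spike-in scaling gave 1.81 and 1.54. The difference between no.1 and no.2 was -0.38 and did not pass limma's test (adjusted p = 0.341), and with spike-in scaling it turned to 0.26.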

How the results depend on the processing

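Col11a1 against control in no.2 kept its direction and call in all 17 alternatives, and Col5a3 in no.1 its direction in 17 and its call in 15. Col11a2 in no.1 kept its direction and call in 16, but spike-in scaling turned it to 0.35. Its raw signals in control and no.1 overlapped, and it entered the test only through control. Differences of members between no.1 and no.2 were called in none of the 17. The dim probes of Col11a2, Col24a1 and Col27a1 limit what can be measured, and the cause of the changes below was not tested. Counts are given as members called higher and lower against control. Quantile normalization and median-probe scaling gave 2 higher in no.1, and 3 members were higher in no.2 with quantile normalization and with the value table, where Col1a1 was added (adjusted p = 0.0351 and 0.0357). Averaging all probes of a gene gave 3 lower in no.1, added Col24a1 in both groups (adjusted p = 0.00849 and 0.0331) and ended Col11a2 in no.2 (0.589). Spike-in scaling gave 6 and 0 in no.1 and 5 and 0 in no.2, with 19388 and 15642 of all genes called, of which 97.8% and 96.6% were higher (44.8% and 42.8% with the percentile, 69.7% and 69.0% with the median probe, 54.3% and 54.6% with quantile normalization). Using only the arrays of the 2 groups compared gave 2 and 4 in no.1 and 1 higher in no.2, where Col27a1 was not tested. Averaging the control arrays left 1 and 0 in no.2, with 4846 genes called in no.1 (4802 of them shared with the reported fit) and 1246 in no.2 (1236 shared). Without a filter on dim probes 24873, 16476 and, between no.1 and no.2, 8296 genes were called.

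Normexp on the median signal was chosen after seeing the data, because the planned version on the mean signal could not be run. It gave 2 and 4 in no.1 and 4 and 2 in no.2. The 50 units it adds exceed the signals of Col11a2, Col24a1 and Col27a1. Same-number deviations correlated at -0.035 and -0.017 between control and the cKO groups. Between no.1 and no.2, whose same-number files carry the same time, the correlation was 0.165. The fit with the replicate block gave 4 lower in no.1, with Col3a1 at adjusted p = 0.0383 and Col24a1 at 0.0344. The block changed no other call of a member.

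Signs that turned in no.1 against control were, with quantile normalization, Col1a1 (0.36) and Col1a2 (0.086), with the value table the same genes (0.37 and 0.09), and with the median probe Col1a1 (0.30) and Col5a2 (0.36). With the spike-ins they were Col1a1 (1.81), Col1a2 (1.49), Col3a1 (0.66), Col5a2 (1.87) and Col11a2 (0.35), and with normexp Col1a1 (0.56, adjusted p = 0.00464), Col1a2 (0.25), Col5a2 (0.18) and Col27a1 (-0.53, adjusted p = 0.00842). In no.2 against control they were Col5a2 (0.063) with the median probe, Col5a2 (1.04), Col5a3 (0.61) and Col11a2 (0.13) with the spike-ins, and Col27a1 (-0.015) with normexp. Between no.1 and no.2 they were Col5a1 with the median probe (0.084) and normexp (0.22), and with the spike-ins Col1a1 (0.26), Col1a2 (0.091), Col5a1 (0.62), Col11a2 (0.21) and Col24a1 (0.10).

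Leaving out 1 array at a time, members called ranged from 0 to 2 higher and 1 to 4 lower in no.1 and from 1 to 2 higher and 0 to 1 lower in no.2, and all genes called from 5147 to 12031, from 1401 to 6154 and, between no.1 and no.2, from 0 to 77. Against control Col5a2 ranged from -0.30 to 0.16 in no.1 and from -0.82 to 0.31 in no.2, Col5a3 from -1.54 to 0.17 in no.2 and Col3a1 from -0.37 to 1.26 in no.2. Between no.1 and no.2 the ranges were -0.38 to 0.76 for Col5a2, -0.13 to 0.072 for Col5a1, -1.81 to 0.033 for Col11a1 and -1.91 to 0.82 for Col24a1. An arm left with 1 array was assumed to vary like the others.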
